A study of Rattus norvegicus with 6 samples.

Results

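Small RNA was sequenced from rat primary sertoli cells, the somatic cells that support germ cells in the seminiferous tubule, and the reads of 6 RNA families made by RNA polymerase III are described here. The families were chosen by their identifiers in Rfam, a database of RNA families, and were vault RNA (RF00006), Y RNA (RF00019), 7SK RNA (RF00100), the metazoan signal recognition particle (SRP) RNA (RF00017), the RNA of nuclear RNase P (RF00009) and the RNA of RNase MRP (RF00030). All 6 were present among the 2359 rows of the table that name an RNA, and all 6 had enough reads to be tested. The cells came from testes of Sprague-Dawley rats 5 to 10 days old, were expanded in culture and were collected at 24 h. There were 3 control samples kept without 4-nonylphenol (4-NP), an alkylphenol with estrogen-like action, and 3 samples given 0.5 mM 4-NP. Whether the control samples received the solvent of 4-NP is not given in the sources used here. RNA of 18 to 30 nt was cut from a gel, so the counts are of short pieces of these RNAs or of reads that match them, not of the full-length transcripts.

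RNA polymerase III makes short, structured RNAs that do not code for protein. Vault RNA belongs to the vault, a large cytoplasmic particle whose shell is the major vault protein. Y RNA is bound by the Ro60 and La proteins and is known to be cut into short pieces in stressed or dying cells. 7SK RNA holds the elongation factor P-TEFb in an inactive state, and SRP RNA is the scaffold of the particle that brings secretory proteins to the endoplasmic reticulum. RNase P trims the leader of tRNA precursors, and RNase MRP, which shares most of its protein subunits with RNase P, cuts precursor ribosomal RNA. The comparison asks which of these RNAs were higher after 4-NP and which were not.

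The samples had 22291892 to 23426742 reads on mature miRNAs in the controls and 20023200 to 22130929 after 4-NP, and all values below are reads scaled to these totals (CPM, with 1000000 miRNA reads as the base). A count of 0 allowed up to 3 reads, or 0.128 to 0.150 CPM per sample, and such limits cover counting error only, since whether reads were collapsed to molecules is not given in the sources used here. No label says that the samples came from separate cultures, so p-values measure the spread between these samples. Of 2 listed miRNAs of gonadal somatic cells, 0 were higher or lower by edgeR at an adjusted p under 0.05. miR-202-5p was at 805 to 1195 CPM in the controls and 698 to 792 CPM after 4-NP. All treated samples thus lay below all controls, with a log2 fold change of -0.46 (edgeR unadjusted p = 0.0338, adjusted p = 0.107). miR-202-3p had 9, 67 and 59 reads in control samples 1, 2 and 3 against 89, 123 and 0 in the treated samples. Its log2 fold change was 0.77 (edgeR adjusted p = 0.689). The smooth muscle or myoid miRNAs miR-143-3p and miR-145-5p summed to 120518 to 136205 CPM in the controls and 88367 to 96674 CPM after 4-NP, and miR-143-3p was lower (adjusted p = 0.00507 in edgeR). The part of these shifts in the results below was not tested. In such bulk samples, a change in the makeup of the cells and a change in the RNA per cell cannot be told apart. The 4-NP samples were not alike for these families, as 4-NP sample 2 held by far the most Y RNA, and the main Y RNA values are also given without it.

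In edgeR's quasi-likelihood test over all 1285 tested rows, vault RNA and RNase MRP RNA were higher after 4-NP at an adjusted p under 0.05. Y RNA was higher in 3 of 3 treated samples but lay at the threshold (adjusted p = 0.0502). For 7SK, SRP and RNase P RNA the groups overlapped and no change was detectable. Of the 6 families 2 were therefore higher and 0 lower by edgeR, and 0 were lower by edgeR also at an unadjusted p under 0.05. DESeq2 called 3 higher and 0 lower, limma 2 higher and 0 lower. Over all tested rows, 12.3% were higher and 9.42% were lower at the same threshold. Among the 736 tested rows that are not mature miRNAs, the shares were 15.2% higher and 7.88% lower. All treated samples lay above all controls in 3 of the 6 families and below them in 0, against 35.2% and 11.4% of those 736 rows. The median log2 fold change of the 6 families was 1.20, against 0.27 for all tested rows and 0.48 for those that are not mature miRNAs.

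**Figure D1:**
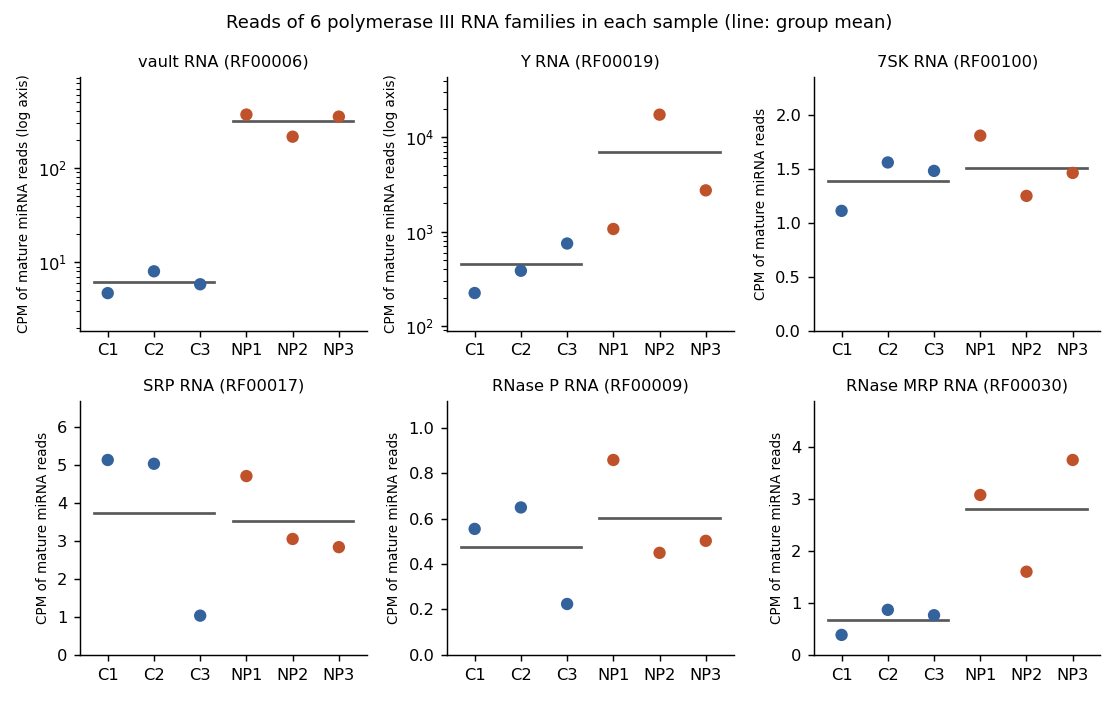
CPM of each RNA family (y axis, scaled to mature miRNA reads, with a log axis for vault and Y RNA) in control samples C1 to C3 and 4-NP samples NP1 to NP3, with a line at each group's mean. All 3 treated samples lie above all controls for vault, Y and RNase MRP RNA, and the groups overlap for the other 3 families.

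The reads of vault RNA (RF00006) were 110, 185 and 130 in control samples 1, 2 and 3, and 8210, 4323 and 7730 in 4-NP samples 1, 2 and 3. These were 4.70, 8.01 and 5.83 CPM in the controls and 371, 216 and 353 CPM after 4-NP. The highest and lowest samples of a group differed by 1.71-fold in the controls and 1.72-fold after 4-NP, while the lowest treated sample was 27.0-fold above the highest control. Group means (± SD, n = 3 each) were 6.18 ± 1.68 and 313 ± 84.8 CPM. The log2 fold change was 5.66 ± 0.35 (SE, edgeR adjusted p = 0.000356), which is 50.7-fold with a 95% interval of 28.3 to 90.7. Among the 736 rows that are not mature miRNAs, vault RNA ranked 18th by log2 fold change. Under the 21 alternative settings its log2 fold change stayed between 5.25 and 5.89, and its adjusted p was at most 0.00911.

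RNase MRP RNA (RF00030) was a low-count family that rose after 4-NP. It had 9, 20 and 17 reads in control samples 1, 2 and 3 against 68, 32 and 82 in the treated samples. In CPM these were 0.384, 0.866 and 0.763 against 3.07, 1.60 and 3.75. Its lowest treated sample, 4-NP sample 2, was 1.85-fold above the highest control. Group means (± SD, n = 3 each) were 0.671 ± 0.254 and 2.81 ± 1.10 CPM. The log2 fold change was 2.06 ± 0.44 (SE, edgeR adjusted p = 0.0201), or 4.17-fold with a 95% interval of 1.99 to 8.72. Omitting control sample 1, 2 or 3 gave edgeR adjusted p values of 0.0638, 0.0517 and 0.0618, and omitting 4-NP sample 1 or 3 gave 0.0550 and 0.0672, so the call was lost in each case. Without 4-NP replicate 2 it was kept (adjusted p = 0.0143 in edgeR). RNase MRP RNA passed in DESeq2, in edgeR's classic exact test and in limma.

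RNase P RNA (RF00009), the relative of RNase MRP RNA, had 13, 15 and 5 reads in control samples 1, 2 and 3 against 19, 9 and 11 in the treated samples. Its CPM were 0.555, 0.649 and 0.224 in the controls and 0.859, 0.449 and 0.502 after 4-NP, so the groups overlapped, and the log2 fold change was 0.34 ± 0.57 (SE, edgeR adjusted p = 0.690). The 95% interval ran from 0.492-fold to 3.25-fold and overlapped that of RNase MRP RNA. Within each sample the ratio of RNase P to RNase MRP reads was compared directly, which needs no library scaling. Its log2 value was 0.51, -0.40 and -1.67 in the controls and -1.81, -1.77 and -2.84 after 4-NP, so all 3 treated samples lay below all controls. The difference was -1.62 (standard error 0.72, two-sided exact permutation p = 0.1, adjusted p = 0.214 over 15 pairs). The exact test of 3 against 3 samples cannot go below 0.1.

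Y RNA (RF00019) varied more among the treated samples than the other 5 families did, whereas among the controls SRP RNA varied more. Its reads were 5237, 8892 and 16692 in the controls and 23619, 348077 and 60002 after 4-NP. In CPM these were 224, 385 and 749 against 1067, 17384 and 2740. The lowest treated sample was 1.43-fold above the highest control, and the highest treated sample was 16.3-fold above the lowest treated one. In 4-NP sample 2, Y RNA alone made up 1.52% of all counted reads, against 0.0929% and 0.246% in 4-NP samples 1 and 3 and 0.0198 to 0.0654% in the controls. The SD of log2(CPM + 0.5) among the treated samples was 2.05, and of the 279 tested rows with a mean of at least 1000 reads 10 had a larger one, where the median was 0.20. The mean went from 452 ± 269 to 7064 ± 8976 CPM (SD, n = 3 each), and the mean of 4-NP samples 1 and 3 alone was 1904 CPM.

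Y RNA had a log2 fold change of 3.96 ± 1.12 (SE, edgeR adjusted p = 0.0502), or 15.6-fold with a 95% interval of 2.40 to 102. With 4-NP sample 2 left out it was 2.07 (adjusted p = 0.0680 in edgeR). With 4-NP sample 1 left out it was 4.48 (adjusted p = 0.0303 in edgeR), which passed the threshold. Over the 21 alternatives the adjusted p ran from 5.73e-05 to 0.160, and 7 of them gave one under 0.05. The fold change was above 0 in all 21.

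Of the erythroid miRNAs, miR-451-5p was also high in the samples with much Y RNA, and the others were low in reads. Of the 4 erythroid miRNAs listed, 2 were tested, and 1 of these, miR-451-5p, was higher (log2 fold change 4.01 ± 1.00 SE, edgeR adjusted p = 0.0330). miR-486 had a log2 fold change of 2.84 (adjusted p = 0.116 in edgeR). Its reads were 1, 11 and 10 in control samples 1, 2 and 3 against 5, 89 and 52 in the treated samples. In the treated group miR-486 was thus highest in sample 2 and lowest in sample 1, as Y RNA was. Among the controls it was highest in sample 2, unlike Y RNA. The reads of miR-144-3p were 5, 6 and 2 in control samples against 7, 2 and 16 in treated samples, and miR-144-5p was at 0 in 4 of the 6 samples. The miR-144-3p values were thus lowest in control sample 3 and 4-NP sample 2, the samples with the most Y RNA in their groups. The sum of the 4, which is nearly all miR-451-5p, was at 11.01, 11.4 and 40.7 CPM in the controls and 59.3, 310 and 631 CPM after 4-NP. The control with the most Y RNA, sample 3, also had the highest sum, and in both measures 4-NP sample 1 was the lowest of the treated samples. In the treated group Y RNA was highest in sample 2 and the sum in sample 3. The part of erythroid RNA in the Y RNA values was not tested. Of the 3 myeloid miRNAs listed, 3 were tested and 0 were higher or lower by edgeR, also at an unadjusted p under 0.05. The 2 endothelial miRNAs listed were both lower, with a sum of 6325 to 7615 CPM in the controls and 3234 to 3805 CPM after 4-NP. Of the 3 germ cell miRNAs listed, 2 were tested, of which miR-34c-5p was higher (log2 fold change 1.12, edgeR adjusted p = 0.0427), and their sum was 121.5 to 135 CPM in the controls and 105 to 133 CPM after 4-NP.

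7SK RNA (RF00100) had 26, 36 and 33 reads in control samples 1, 2 and 3 against 40, 25 and 32 in the treated samples. In CPM these were 1.11, 1.56 and 1.48 against 1.81, 1.25 and 1.46. The samples of both groups lay in the same narrow range, and the highest treated sample was 1.63 times the lowest control. The log2 fold change was 0.12 ± 0.26 (SE, edgeR adjusted p = 0.760), and the 95% interval of the fold change ran from 0.701 to 1.70.

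SRP RNA (RF00017) had 120, 116 and 23 reads in control samples 1, 2 and 3 against 104, 61 and 62 in the treated samples. The CPM were 5.12, 5.02 and 1.03 in the controls and 4.70, 3.05 and 2.83 after 4-NP. The treated samples lay inside the range of the controls, in which sample 3 was the lowest of all 6 samples. The log2 fold change was -0.080 ± 0.58 (SE, edgeR adjusted p = 0.939), with a 95% interval of 0.361-fold to 2.48-fold. Without control replicate 3 it was -0.52 (adjusted p = 0.273 in edgeR). The direction for 7SK, SRP and RNase P RNA depended on the scaling or the sample left out, and is not read as a change.

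**Figure D2:**
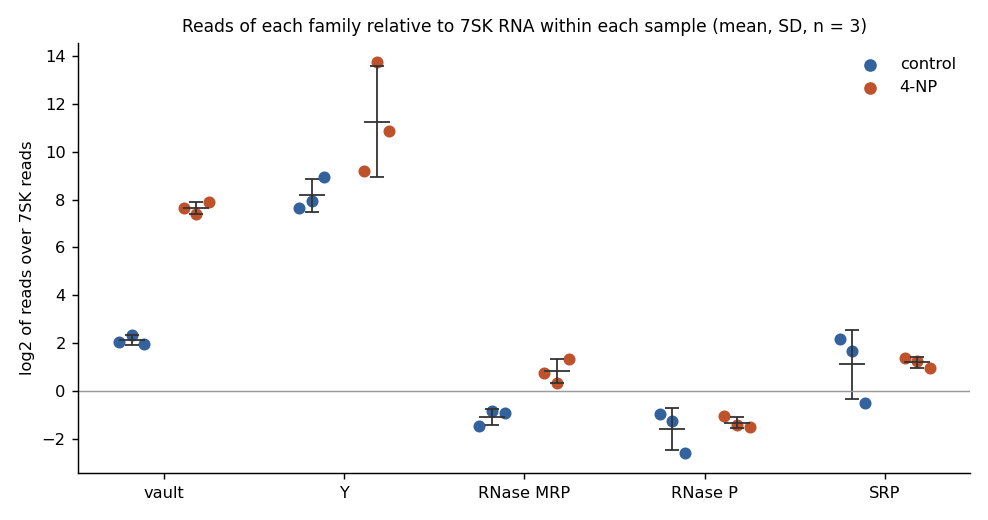
Log2 of each family's reads over the 7SK reads of the same sample (y axis), with points for the 3 control and 3 4-NP samples and bars for the mean and SD. Vault, Y and RNase MRP RNA lie higher relative to 7SK in every treated sample than in any control, and RNase P and SRP RNA overlap.

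The families were also compared with each other inside each sample, as log2 ratios of reads, since these do not depend on the number of miRNA reads. Of the 15 pairs of families, 7 had groups that did not overlap, and 4 of the 7 included vault RNA. The pairs reuse the same 6 families, so they are not separate results. How often pairs of other rows do not overlap was not computed. The 7 pairs without overlap had the smallest p that 3 against 3 samples allow (two-sided exact permutation p = 0.1, adjusted p = 0.214), so the test could not pass the threshold. Vault RNA against 7SK RNA had log2 ratios of 2.06, 2.35 and 1.96 in the controls and 7.66, 7.41 and 7.89 after 4-NP. The difference was 5.53 (standard error 0.18). Vault RNA was also higher relative to SRP RNA by 5.45 (standard error 0.81), relative to RNase P RNA by 5.25 (standard error 0.50) and relative to RNase MRP RNA by 3.63 (standard error 0.24), with no overlap between the groups in any of the 3. RNase MRP RNA was higher against 7SK RNA, and the log2 ratio of 7SK to RNase MRP went from 1.48, 0.83 and 0.94 to -0.76, -0.35 and -1.34.

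For Y RNA, the ratio to 7SK RNA did not overlap between the groups, with a difference of 3.09 (standard error 1.39), or 1.85 without 4-NP replicate 2. The ratio of vault to Y RNA did overlap, with a difference of 2.45 (standard error 1.50), or 3.81 without 4-NP replicate 2. Its log2 value was -5.57, -5.58 and -7.00 in the controls and -1.52, -6.33 and -2.96 after 4-NP, so 4-NP sample 2, which had the most Y RNA, lay among the controls. Among the 3 families without a detectable change all ratios overlapped. The difference between groups was -0.078 (standard error 0.84) for 7SK against SRP RNA, -0.28 (standard error 0.52) for 7SK against RNase P RNA and -0.20 (standard error 0.33) for SRP against RNase P RNA. Without control replicate 3, whose SRP and RNase P counts were low, 12 of the 15 pairs did not overlap. Leaving out a sample can only keep or raise this count.

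**Figure D3:**
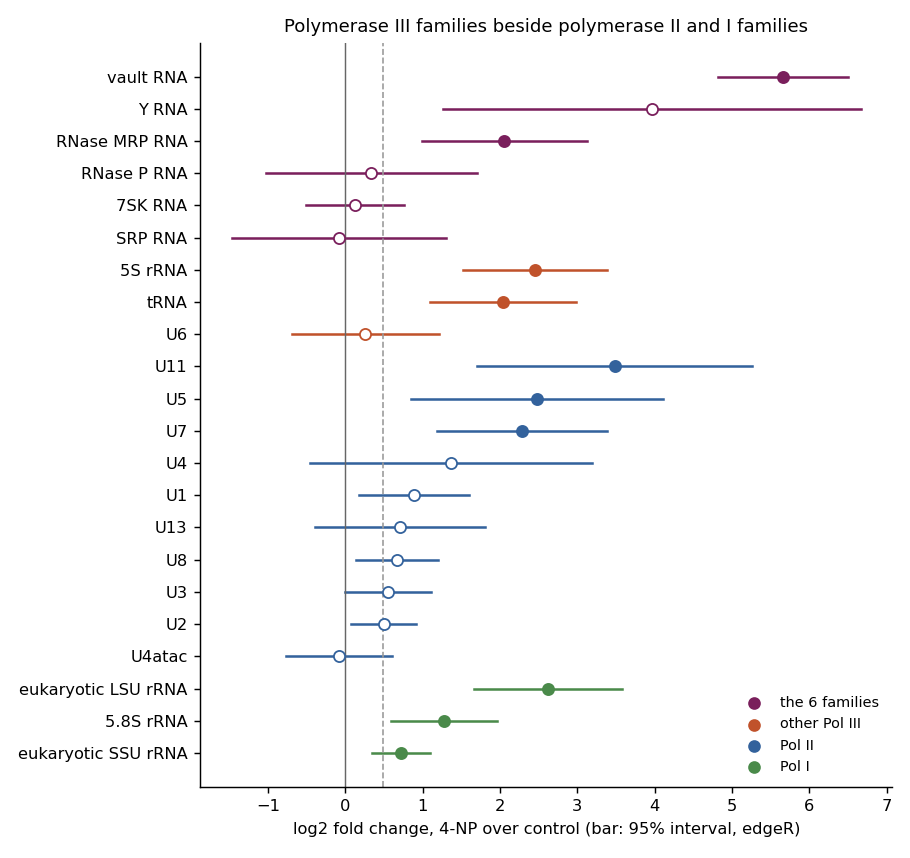
Log2 fold change after 4-NP (x axis, with its 95% interval from edgeR) of the 6 families and of other RNA families made by polymerase III, II or I. Filled points have an adjusted p under 0.05, and the dashed line is the median of 0.48 of the tested rows that are not mature miRNAs.

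Among other polymerase III RNAs, 5S ribosomal RNA and tRNA were higher and U6 was not. Of 6 listed families 5 were present and 3 were tested, of which 2 were higher and 0 lower by edgeR (0 lower also at an unadjusted p under 0.05), against 15.2% and 7.88% of the rows that are not mature miRNAs. The count of 2 fell to 1 without control replicate 1, without control replicate 3 and without 4-NP replicate 3. Over all rows, 82, 98 and 86 were then called higher, against 158 in the main analysis. At an unadjusted p under 0.05 in edgeR the count stayed at 2 in these settings. 5S ribosomal RNA, a part of the large ribosomal subunit, had 59, 70 and 127 reads in control samples 1, 2 and 3 against 546, 456 and 314 in the treated samples. Its log2 fold change was 2.46 ± 0.39 (SE, edgeR adjusted p = 0.00688). The tRNA row had group means of 369 ± 95.4 and 1517 ± 673 CPM (SD, n = 3 each) and a log2 fold change of 2.04 ± 0.39 (SE, edgeR adjusted p = 0.0145). U6, the snRNA at the catalytic centre of the spliceosome, had 743, 1119 and 1032 reads in control samples 1, 2 and 3 against 1823, 726 and 722 in the treated samples, and the groups overlapped (log2 fold change 0.26 ± 0.39 SE, edgeR adjusted p = 0.663). The untested U6atac had 3 to 9 reads per sample. The untested selenocysteine tRNA had 3, 0 and 1 reads in control samples 1, 2 and 3 against 8, 74 and 9 in the treated samples, with most reads again in 4-NP sample 2.

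Some families made by other polymerases were also higher. Of 12 listed polymerase II families 10 were tested, of which 3 were higher and 0 lower by edgeR (0 lower also at an unadjusted p under 0.05), and 7 did not pass. The 3 were U11 of the minor spliceosome (log2 fold change 3.48), U5, another spliceosomal RNA (2.48), and U7, which serves in histone mRNA processing (2.28). The adjusted p of U5 was 0.0450 in edgeR, near the threshold. At an unadjusted p under 0.05 in edgeR, 6 of the 10 were higher. So were 3 of the 6 families described here and 218 of the 736 rows that are not mature miRNAs. In U1, U2, U3 and U8, which did not pass, all treated samples also lay above all controls. For U4, U4atac and U13 the groups overlapped. The 3 ribosomal RNAs made by polymerase I were all higher, with log2 fold changes of 2.62 for the large subunit, 1.28 for 5.8S and 0.73 for the small subunit. Of the rows that are not mature miRNAs 15.2% were higher. The counts of both lists changed when a sample was left out, as did those over all rows. The polymerase II count was 0 without control replicate 1, without control replicate 2 or without 4-NP replicate 3. Over all rows, 82, 102 and 86 were then called higher, against 158 in the main analysis. At an unadjusted p under 0.05 in edgeR, 3, 6 and 5 polymerase II families were higher in these settings. The polymerase I count was 1 without any of the control replicates 1, 2 and 3 or without 4-NP replicate 1. At an unadjusted p under 0.05 in edgeR it stayed at 3 in each. By list, the median change on the log2 scale was 2.04 for the other polymerase III families, 0.80 for the polymerase II families and 1.28 for the polymerase I families. Vault RNA, at 5.66, was above each of these 16 families, and its 95% interval of 4.82 to 6.50 overlapped only that of U11, at 1.70 to 5.26. The intervals of 7SK, SRP and RNase P RNA included 0, as did those of U6, U4, U3, U13 and U4atac (log2 fold change -0.078).

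A different scaling moved these values together. With TMM factors from the rows that are not mature miRNAs, the median log2 fold change of those rows was 0.061 in place of 0.48. The log2 fold change was then 5.25 for vault RNA, 3.66 for Y RNA and 1.64 for RNase MRP RNA. For 7SK, SRP and RNase P RNA it was -0.29, -0.50 and -0.086. With those factors 28.4% of the called rows were higher, against 56.6% with the miRNA sum. The share was 41.1% with TMM factors from all tested rows, 41.8% with RLE factors and 45.2% in DESeq2. Vault RNA and RNase MRP RNA passed under all 4 of these settings, with RNase MRP RNA at an adjusted p of 0.0279 in edgeR for the TMM factors from the rows that are not mature miRNAs.

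**Figure D4:**
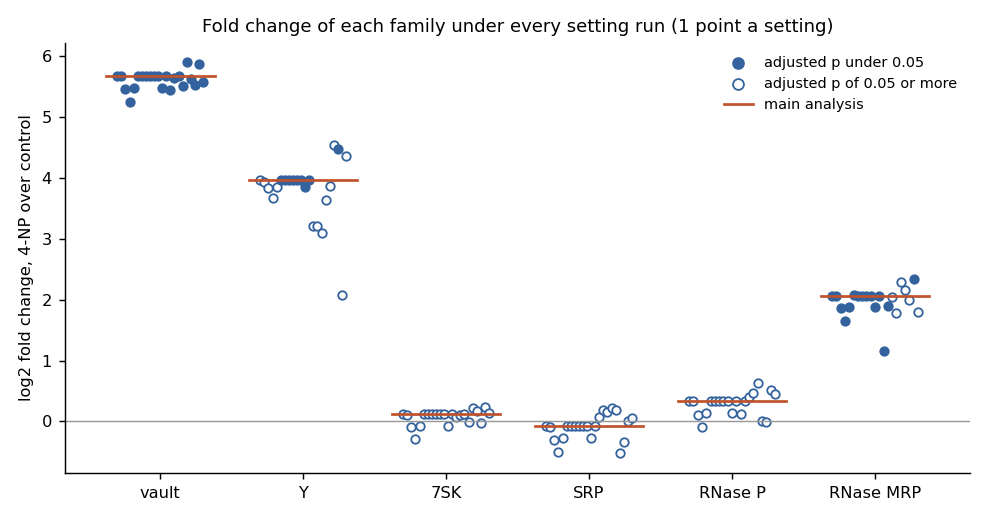
Log2 fold change of each family (y axis) under the main analysis, marked by a line, and under each alternative run, with 1 point a setting, filled where the adjusted p was under 0.05. Vault RNA kept an adjusted p under 0.05 in all 21 alternatives, Y RNA had one in 7, RNase MRP RNA in 14 of 20, and the other 3 families in 0.

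The rows of the table most like each family over the 6 samples were also found. Likeness was measured as the root mean square difference of log2(CPM + 0.5), centred on each row's mean, among 645 rows with a mean of at least 100 reads. Rows picked in this way share the pattern of their family by construction, so the shared patterns below are not separate results. The row closest to vault RNA was novel_pir267, which the authors predicted as a piRNA, at 0.40. It had 121, 125 and 98 reads in control samples 1, 2 and 3 against 3670, 2705 and 4349 in the treated samples. The next was novel_pir265, at 0.50, with 0 reads in all controls and 361, 149 and 313 after 4-NP, and the third was the predicted novel_mir3, at 0.95. For these, as for vault RNA, the treated samples stood far above the controls.

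The row closest to Y RNA was the miR-451 precursor (RF00722), at 0.59, with reads of 51, 75 and 123 in control samples against 115, 2049 and 1062 in treated samples. It shared with Y RNA the highest value in 4-NP sample 2 and a low value in 4-NP sample 1. It was followed by rno_piR_001199 at 0.77 and by the eukaryotic large subunit ribosomal RNA (RF02543) at 0.94. For RNase MRP RNA the closest row was 5.8S ribosomal RNA (RF00002), at 0.12, with reads of 30043, 47011 and 44149 in control samples against 107568, 56386 and 113701 in treated samples. It was followed by miR-296-3p at 0.21 and rno_piR_005598 at 0.24. Rows without a detectable change stood next to the other 3 families, namely miR-339-3p, miR-331-3p and miR-324-5p for 7SK RNA, SNORD43 (RF00221), SNORD10 (RF01290) and miR-186-5p for RNase P RNA, and novel_pir62, miR-210-3p and RF00375 for SRP RNA. The log2 fold changes of these 9 rows ran from -0.45 to 0.28. For families with few reads the likeness depended on the 0.5 added. With 0.1 in its place, a choice made after seeing the data, tRNA (RF00005) at 0.24 was closer to RNase MRP RNA than 5.8S at 0.34. The closest row also changed for 7SK, SRP and RNase P RNA, while it remained novel_pir267 for vault RNA and the miR-451 precursor for Y RNA.

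**Figure D5:**
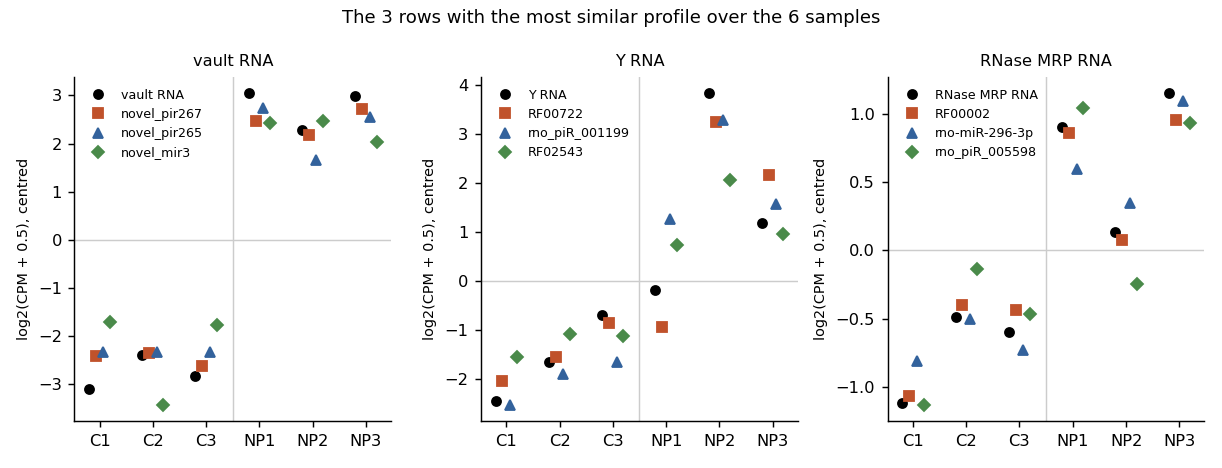
Log2(CPM + 0.5) centred on each row's mean (y axis) in control samples C1 to C3 and 4-NP samples NP1 to NP3, for vault, Y and RNase MRP RNA and the 3 rows with the most similar values. Y RNA and the miR-451 precursor (RF00722) are highest in NP2, and RNase MRP RNA and 5.8S ribosomal RNA (RF00002) are lowest among the treated samples in NP2.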

How the data were processed

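Small RNA from 3 control and 3 4-NP-treated samples was analysed. The authors deposited 1 table of read counts per small RNA and sample, without normalization. The submitters' processing notes name HISAT2 and DESeq2 without a role, and the genome build, the annotation, the strand setting and the rule that assigns reads to families are not given in the sources used here. Per the labels the 3' adapters carried unique molecular identifiers (UMI), but whether the deposited counts are of reads or of collapsed molecules is not given in the sources used here. A family row may sum several gene copies and pseudogenes. Of 2363 rows, 4 that only total the reads of exons, introns, intergenic regions or repeats were left out (0.431 to 2.46% of reads each).

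The sum of the 734 mature miRNA rows was the library size. Counts were tested in R 4.3.3 with edgeR 4.0.16 (quasi-likelihood F test, two-sided, no replicate block, filterByExpr), and p-values were Benjamini-Hochberg adjusted over the 1285 tested rows. Alternatives used other scalings, filters, DESeq2 1.42.0, limma 3.58.1, edgeR's exact test, a replicate block and the omission of each sample. Ratios of reads (0.5 added) were compared by exact permutation with scipy 1.17.1. The fit was tested on simulated data, with the same spread set for every row. There a log2 change of 1 was called in 15.1% of the changed rows, and one of 2 in 89.4%. Named rows were the 6 families, fixed lists by polymerase, and the 3 most similar rows of each family. Families and lists were chosen with earlier results of these data known. Replicate pairs differed beyond sampling noise (chi-square over its degrees of freedom, 96.7 to 725) and were kept apart. Sequences of these families were not used here.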

Additional observations from a re-analysis of the deposited data

Results flagged for a closer look

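For each sample the authors also gave a value under the heading UMI, which entered no comparison above. The adapters carried unique molecular identifiers, but the unit of this value is not given in the sources used here. It holds 1 for each of the 673 known mature miRNAs in every sample with reads and 0.001 where there are no reads, so for these it cannot be a number of molecules. In this column 3 of the 6 families were higher in every treated sample than in any control, as were 15.2% of the 736 tested rows that are not mature miRNAs. Vault RNA had values of 29, 40 and 35 in the controls and 311, 189 and 306 after 4-NP, with means of 34.7 ± 5.51 and 269 ± 69.0 (SD, n = 3 each). Y RNA had 361, 432 and 637 against 799, 1992 and 1117, with means of 477 ± 143 and 1303 ± 618 (SD, n = 3 each). RNase MRP RNA had 8, 12 and 12 against 19, 14 and 25, with means of 10.7 ± 2.31 and 19.3 ± 5.51 (SD, n = 3 each). The ratio of the means was 7.75 for vault RNA, 2.73 for Y RNA (2.01 without 4-NP sample 2) and 1.81 for RNase MRP RNA. These were smaller than the ratios of mean CPM of 50.7, 15.6 (4.21 without 4-NP sample 2) and 4.18. Unlike CPM, the values of this column were not scaled to the miRNA reads. Reads per unit of this column were 3.71 to 4.63 for vault RNA in the controls and 22.9 to 26.4 after 4-NP. For Y RNA they were 14.5 to 26.2 in the controls and 29.6, 175 and 53.7 in 4-NP samples 1, 2 and 3. For 7SK, SRP and RNase P RNA the column overlapped between the groups, with ratios of the means of 1.08, 1.04 and 1.08.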

How the results depend on the processing

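Vault RNA kept its direction and its call in all 21 alternatives. Y RNA barely passed with scaling to all rows that name an RNA (3.97) and in the fit without mature miRNAs (3.96). The edgeR adjusted p values were 0.0498 and 0.04998. It also passed with at least 10 counts in every sample (3.96), in edgeR's exact test (3.96) and in DESeq2 with its own (3.84) or the miRNA (3.96) size factors. It did not pass in the other 9 alternatives that kept all samples. Among these were robust edgeR (adjusted p = 0.0713) and limma with 1 or 0.1 added (adjusted p = 0.0620 and 0.0694). 7SK RNA turned negative with TMM over all rows (-0.087), TMM over rows that are not mature miRNAs (-0.29), RLE factors (-0.068) and DESeq2's own factors (-0.068), and RNase P RNA did with TMM over rows that are not mature miRNAs (-0.086). SRP RNA turned positive in limma with 1 (0.079) or 0.1 (0.18) added. The causes were not tested, and all these values but the adjusted p are log2 fold changes. With each sample left out, they ran from 2.07 to 4.54 for Y RNA, -0.028 to 0.24 for 7SK, -0.52 to 0.22 for SRP, -0.0019 to 0.62 for RNase P and 1.78 to 2.34 for RNase MRP RNA. The number of families called higher was then 1 to 2, and over all rows 82 to 152 were higher and 80 to 117 lower. Pairs without overlap numbered 7 to 12. That count cannot fall when a sample is left out, so it is no check of the 7 pairs. Over all rows 158 were higher and 121 lower in the main analysis, against 85 and 214 with TMM over rows that are not mature miRNAs. The lower rows numbered 58 in the fit without mature miRNAs and 76 with at least 10 counts in every sample, where fewer rows were tested. That minimum left no value for RNase P and RNase MRP RNA.

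The replicate block left 1 family called higher, vault RNA, and 61 higher and 68 lower rows in all. It left 1 polymerase I, 1 polymerase II and 1 other polymerase III family called higher. With the block RNase MRP RNA had a log2 fold change of 2.03 (adjusted p = 0.0862 in edgeR) and SRP RNA one of 0.15. Deviations of same-numbered samples had correlations of -0.17, -0.16 and 0.089, and only the samples numbered 3 correlated best with their own number. With 3 samples a group these correlations cannot decide whether same-numbered samples were prepared together. The labels give them only a shared number. At 5 to 120 reads per sample, as for 7SK, SRP and RNase P RNA, small changes were not detectable.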

Other observations

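Several rows carry the names of relatives of these families in other organisms. Of 11 such rows listed, 6 were present and 1 had enough reads to be tested. This was the Y RNA-like family (RF02553), with reads of 13, 21 and 17 in control samples and of 35, 33 and 55 in treated samples, a log2 fold change of 1.36 ± 0.32 (SE, edgeR adjusted p = 0.0282). Unlike for Y RNA, 4-NP sample 2 was not the highest. The other 5 had at most 3 reads in any sample. The row for RNase MRP of Giardia, named here after its values were seen, had 0 reads in all controls and 7, 9 and 46 after 4-NP, too few to be tested. The row for bacterial large subunit ribosomal RNA, also named after its values were seen, counted 94, 89 and 454 reads in the control samples against 566, 2943 and 7114 in the treated samples, a log2 fold change of 4.14 (adjusted p = 0.0452 in edgeR). The bacterial small subunit row (RF00177) had a log2 fold change of 4.12 and did not pass (edgeR adjusted p = 0.119). Of the 736 tested rows that are not mature miRNAs 15.2% were higher. The part of these bacterial rows in the values of the 6 families was not tested.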
